A study of Mus musculus with 12 samples.

Results

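The Bcl2 family genes that set whether a cell keeps or loses its mitochondrial integrity were examined in blood neutrophils of 2 transplant groups. The members were 10 genes chosen by name: the pro-survival genes Mcl1, Bcl2a1a, Bcl2a1b, Bcl2a1d, Bcl2 and Bcl2l1, and the pro-death genes Bcl2l11, Bid, Bax and Bak1. Of these, 9 had a row among the 11494 genes of the deposited table. Bcl2 was not analysed here. The series title places the samples in a study of Y chromosome loss in blood-forming cells, cardiac fibrosis and heart failure. Group Control BMT carried the genotype label Control and group LOY BMT the genotype label LOY, for loss of the Y chromosome. Both groups were labelled as control for treatment, and each had 6 libraries. Per the labels' protocols, every library came from 10000 blood cells sorted as Ly6G+, CD115- and RFP+. How the Y chromosome was lost, what RFP marks, and the age and strain of the mice are not given in the sources used here. Whether the libraries of a group come from different mice is not stated, and p-values here reflect the spread among libraries, which may be technical.

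Bcl2 family proteins act at the outer mitochondrial membrane. Bax and Bak, once active, form pores through which cytochrome c leaves to switch on caspases. Bcl-2, Bcl-xL (from Bcl2l1), Mcl-1 and A1 (from the Bcl2a1 genes) hold these pore formers and their activators in check. The BH3-only proteins, among them Bim (from Bcl2l11), Bid, Noxa (from Pmaip1) and Puma (from Bbc3), either bind the survival proteins or activate Bax and Bak. Neutrophils are short-lived cells that depend on Mcl-1, a protein with rapid turnover, and mouse neutrophils also use A1, whose gene has been copied several times in the mouse genome.

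Values are normalized reads, which are the reads of a gene divided by 1 size factor for the library. Depth was 13743581 to 18459792 recovered reads per control library and 17097739 to 19616066 per LOY library. Control 1, 2 and 12 stood apart, with 20.49%, 21.7% and 17.3% of the listed genes at 0, against 9.33% to 11.1% in the other controls and 6.59% to 11.6% in the LOY libraries. The Y-linked genes checked the labels: Ddx3y was at 1054 ± 267 in control and 68.7 ± 146 in LOY (SD, n = 6 each), and Eif2s3y at 2348 ± 590.2 and 179.7 ± 396. The library labelled LOY 4 kept 1422 reads over the 4 Y-linked genes listed, against 2716 to 4474 in control. Kdm5d, also Y-linked, was above 0 only in Control 6 (38.3) and Control 12 (175), and was past the threshold in DESeq2. Of the neutrophil markers 8 of 8 were present, led by S100a8 and S100a9, and summed to 1321969 to 2354624 in control and 1338246 to 1992388 in LOY. Red cell genes, led by Hba-a1 and Hbb-bs, summed to 72416 to 142394 in control and 93479.7 to 627781 in LOY, highest in LOY 15. For B cells (7 of 7 genes with a row, led by Ighm and Cd79a) the sums were 4005 to 6592 and 1818 to 7441. For monocytes (4 of 7, led by Csf1r and Ly6c2) they were 8857 to 15121 in control and 11595 to 16458 in LOY. Csf1r, the gene of CD115, for whose absence the cells were sorted, gave 5850 to 11687 in control and 9734 to 15221 in LOY. Ccr2, Ms4a6c and Cx3cr1 of that list had no row. Whether these reads come from monocytes was not tested. The monocyte-list genes Irf8 and F13a1 were at 0 in all 6 controls, and both were past the threshold in DESeq2. Irf8 reached 228 in LOY 9 but was 0 in LOY 10 and 0.864 in LOY 19. F13a1 was 79.5 in LOY 5, 138 in LOY 15 and 0 in the other LOY libraries. Of the same list, Csf1r and Ly6c2 went opposite ways, with deposited log2 fold changes of 0.42 and -0.68. Sums for T and NK cells (4 of 9, led by Cd3d and Cd3g), platelets (5 of 6, led by Pf4 and Ppbp) and eosinophils or basophils (3 of 7 by name, led by Ccr3 and Fcer1a) were at most 1402. Siglecf, of the eosinophil or basophil list, has a row by its identifier but not by this name and is not in that sum. The part of these other cells in the values of the members was not tested.

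No member passed the test for a difference between the groups. In limma, 0 of 9 members passed an adjusted p of 0.05, beside 2 of 9742 genes tested (0.0205%). At an unadjusted p of 0.05 the count was also 0 of 9 members in limma, edgeR and DESeq2, beside 6.04%, 2.96% and 5.55% of the genes tested by each. After adjustment, edgeR called 0 of 9742 genes (0.0%) and DESeq2 54 of 10963 (0.493%), again with 0 members among them. The 2 groups overlapped for every one of the 9 members, whereas 0.287% of genes tested had groups that did not overlap. Estimates were above 0 for 4 members and below 0 for 5, and their median log2 fold change, LOY over control, was -0.070. Over all genes tested, 60.9% of estimates were above 0 and the median was 0.14, and relative to that shift the members ran from -0.43 for Bcl2a1a to 0.31 for Bak1. In limma the 5 pro-survival members had a median of -0.078 with 1 estimate above 0, and the 4 pro-death members a median of 0.19 with 3 above 0. This contrast of signs depended on the tool. Bcl2a1d was above 0 in edgeR (0.12) and DESeq2 (0.11), and Bak1 was below 0 (-0.29 and -0.30), while the other members kept their signs.

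**Figure D1:**
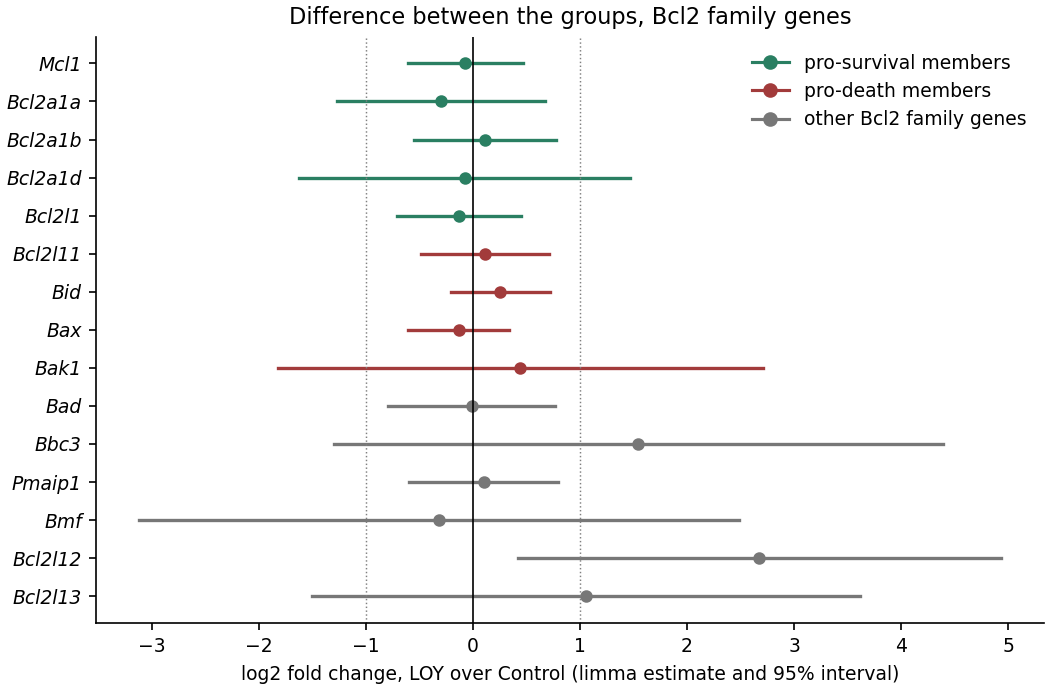
Log2 fold change, LOY over control, for the 9 members and the 6 other family genes with a row, on the log2(value + 1) scale, with limma estimates as points, 95% confidence intervals as bars and dotted lines at a 2-fold change. Every member's interval crosses 0, and among members those of Bak1 and Bcl2a1d are the widest.

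How much change the data leave room for differed between members. The 95% confidence interval lay within a 2-fold change in either direction for 6 of 9 members, namely Mcl1, Bcl2a1b, Bcl2l1, Bcl2l11, Bid and Bax, beside 30.7% of all genes tested. That share covers genes of all read levels. The median within-group SD (log2) was 0.91 over all genes tested and 0.43 over those averaging at least 500 normalized reads. For Bcl2a1a, Bcl2a1d and Bak1 a change of 2-fold in at least 1 direction was inside the interval and was not detectable at this depth and spread. The estimates of Mcl1, Bcl2a1b, Bcl2l1, Bcl2l11, Bid, Bax and Bak1 changed sign when Control 1, 2 and 12 were left out together. No direction can therefore be given for any of them. In bulk samples fewer cells of a type and less RNA per cell cannot be told apart.

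Transcript levels could be ordered per length, as normalized reads per kilobase of exon. Mcl1 stood first at 3251 ± 1722 reads per kb in control (SD, n = 6) and 2841 ± 340.3 in LOY. Bid, the BH3-only protein that caspase-8 cuts, followed at 945 ± 297 in control. Mcl1 was above Bid and Bid above Bax in 12 of 12 libraries, and the control ranges of neither pair overlapped, with ratios of the control means of 3.44 and 2.57. Then came a middle group: Bax at 367 ± 96.9, Bcl2a1a at 339 ± 214, Bcl2a1b at 304 ± 74.2, Bcl2l1 at 229 ± 57.7 and Bcl2l11 at 155 ± 56.4 reads per kb in control. Neighbours in this middle group had overlapping control ranges, and Bax lay above Bcl2a1a in only 8 of 12 libraries and Bcl2a1a above Bcl2a1b in 4 of 12. Bcl2a1d, at 77.8 ± 31.3, was below Bcl2l11 in 10 of 12 libraries. Levels of the Bcl2a1 genes may miss reads that match several genes. Bak1 was last at 6.64 ± 9.41, below Bcl2a1d in 12 of 12 libraries. The 2 pore formers thus lay far apart, with Bax in the middle group and Bak1 near the limit of counting. Bax was the third member per length by control mean only, and was not set apart from Bcl2a1a.

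**Figure D2:**
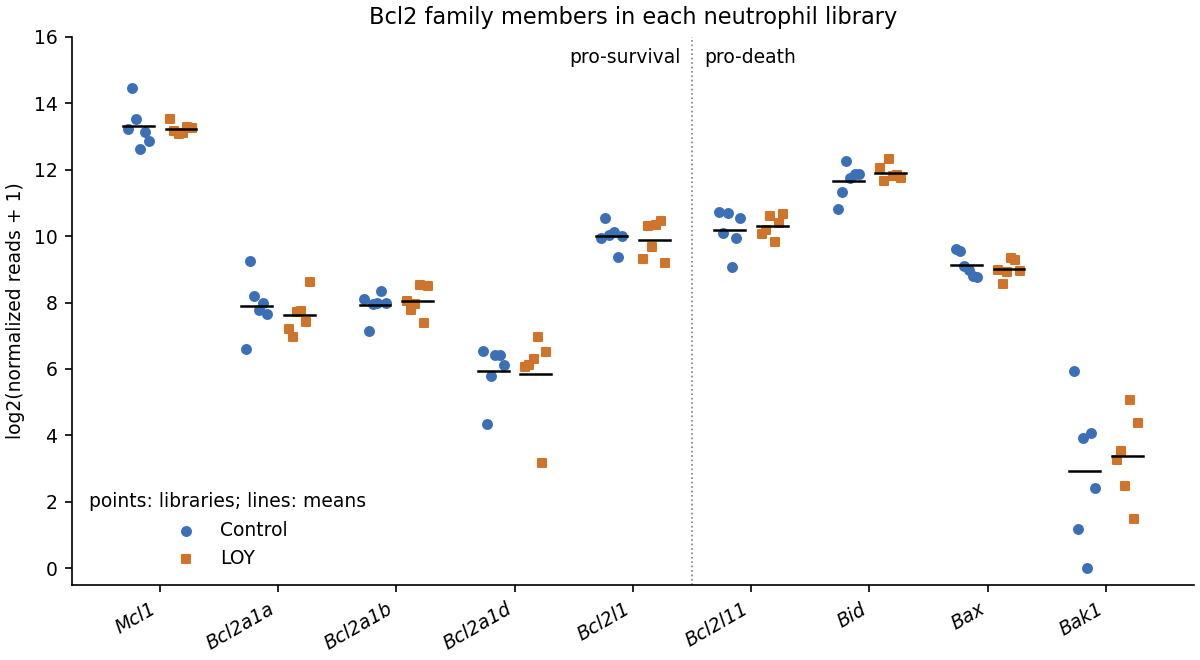
Log2(normalized reads + 1) of the 9 members, with control and LOY side by side, 1 point per library and a line at the group mean. By group mean Mcl1 is highest and Bak1 lowest in both groups, and the 2 groups overlap for each gene.

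Mcl1 (chr3:95658788-95663176, plus strand, GRCm38, 3418 bases of exon) encodes the survival protein on which neutrophils depend most. It ranged from 6360.5 to 22509 (median 9289) normalized reads in control and from 8692 to 11885 (median 9459) in LOY. A single control library, Control 2, lay far above the rest, and all LOY libraries fell inside the control range. The means were 11113 ± 5887 and 9709.7 ± 1163 (SD, n = 6 each). The log2 fold change was -0.070 ± 0.25 (SE; 95% interval -0.61 to 0.47; limma adjusted p = 0.959), and -0.21 relative to the median gene. Without Control 2 the control mean was 8834 ± 2087 (n = 5) and the log2 fold change 0.16. Mcl1 transcripts share no stretch of 50 bases with another gene's transcripts, unlike several members below. The authors' deposited table gives a log2 fold change of -0.19 for Mcl1, the same value as DESeq2 on recovered reads.

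Bcl2l1 (chr2:152780668-152831728, minus strand, 4586 bases of exon) encodes Bcl-xL, a survival protein that red cell precursors and platelets also use. Control libraries held 662 to 1487 (median 1026) reads and LOY libraries 577 to 1389 (median 1038). The groups covered almost the same span, and the highest LOY value was that of LOY 15, the library with the most red cell transcripts. Control 2, at 1487, was higher still, with a red cell sum of 117990 beside 627781 in LOY 15. The part of red cells or platelets in Bcl2l1 was not tested. Means were 1049 ± 265 in control and 995 ± 363 in LOY, and the log2 fold change was -0.13 ± 0.27 (SE; 95% interval -0.71 to 0.45; limma adjusted p = 0.934). It was -0.24 without LOY 15, -0.25 without Control 17, -0.22 without LOY 10 and -0.21 without LOY 5. In the other direction it was -0.017 without Control 2, -0.011 without the library labelled LOY 4 and 0.013 without LOY 19.

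The A1 protein has 3 member genes, all on chromosome 9 and close copies of each other: Bcl2a1a (chr9:88956900-88962419, plus strand), Bcl2a1b (chr9:89199209-89207827, plus strand) and Bcl2a1d (chr9:88723285-88731914, minus strand). Their coding sequences are shown because the copies differ at few bases, and only those bases let a read be assigned to 1 copy. Each coding sequence is 519 bases long over 2 exons in GENCODE vM21 (GRCm38). Bases 1 to 90, counted from the A of the start codon, read 5′ to 3′ as follows, with capitals at the bases that differ among the copies:
Bcl2a1a: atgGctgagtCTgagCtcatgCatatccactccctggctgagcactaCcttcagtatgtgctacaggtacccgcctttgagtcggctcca
Bcl2a1b: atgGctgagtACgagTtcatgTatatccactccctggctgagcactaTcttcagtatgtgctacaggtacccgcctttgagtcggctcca
Bcl2a1d: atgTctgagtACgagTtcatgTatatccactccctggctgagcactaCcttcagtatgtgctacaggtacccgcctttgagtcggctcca
This stretch holds 6 of the 12 variable bases of the coding sequence. With Bcl2a1a as reference, Bcl2a1b differs here by C11A, T12C, C16T, C22T and C48T, and Bcl2a1d by G4T, C11A, T12C, C16T and C22T. Over all 519 bases Bcl2a1a and Bcl2a1b differ at 11, Bcl2a1a and Bcl2a1d at 7, and Bcl2a1b and Bcl2a1d at 6. Bases 95 to 311, a run of 217, are identical in all 3. Of all 50-base stretches of their transcripts, 69.0% of Bcl2a1a, 79.2% of Bcl2a1b and 79.5% of Bcl2a1d also occur in another gene, chiefly each other. The treatment of reads that match several genes was not given in the sources used here, so the split between the copies is uncertain.

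With that limit, Bcl2a1a ranged from 95.7 to 609.8 (median 235) normalized reads in control and from 123 to 396 (median 191) in LOY. Control 2 was the highest control and LOY 19 the highest LOY library, and the groups overlapped. The log2 fold change was -0.30 ± 0.45 (SE; 95% interval -1.27 to 0.67; limma adjusted p = 0.905), and -0.027 without Control 2. Bcl2a1b lay at 139.6 to 324 (median 251) in control and 167 to 365 (median 256) in LOY. Its groups also overlapped, with a log2 fold change of 0.11 ± 0.31 (SE; limma adjusted p = 0.946). Its exons share 401 bases (49.1%) with Gm29094 on the same strand. Bcl2a1d was the lowest copy, at 19.2 to 91.4 (median 76.7) in control and 8.04 to 125 (median 73.1) in LOY. LOY 15 held its lowest value, and its log2 fold change of -0.078 ± 0.71 (SE; limma adjusted p = 0.982) became 0.46 without that library.

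Summed over the 3 copies, which does not depend on how reads were split among them but would miss reads left out or given to another gene, A1 reads were 594 ± 108 in control and 553 ± 189 in LOY (SD, n = 6 each), with ranges of 465 to 769 and 346 to 847. In control the sum varied less between libraries, with a coefficient of variation of 18.3%, than Bcl2a1a (63.1%), Bcl2a1b (24.4%) or Bcl2a1d (40.2%) alone. In LOY its coefficient was 34.2%, between those of Bcl2a1b (29.0%) and Bcl2a1a (46.6%). Bcl2a1a, Bcl2a1b and Bcl2a1d made up 44.2%, 43.7% and 12.1% of the sum in control and 37.7%, 49.6% and 12.6% in LOY. Single libraries departed from this mix. Bcl2a1a took 79.3% of the sum in Control 2 but 20.6% in Control 1, where Bcl2a1b took 59.7%. Both libraries are among the 3 with many genes at 0, and the part of that in the split was not tested.

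**Figure D3:**
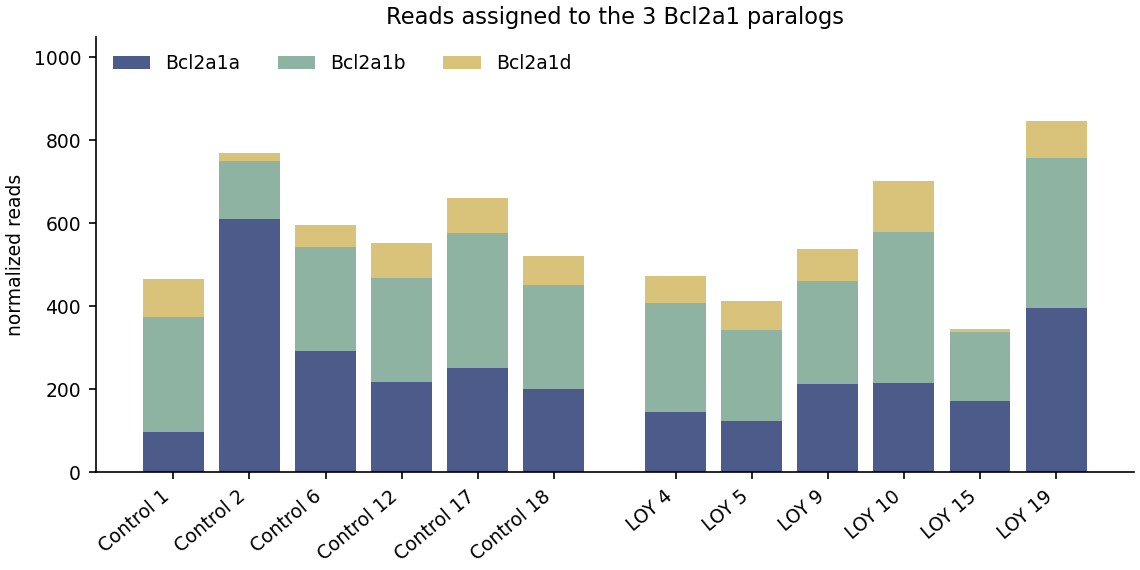
Normalized reads of Bcl2a1a, Bcl2a1b and Bcl2a1d stacked for each library; the height of a bar is the sum over the 3 copies. In Control 2 the bar is mostly Bcl2a1a, while Bcl2a1b is the largest part in Control 1.

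Among the pro-death members, the BH3-only gene Bid (chr6:120891930-120916853, minus strand, 3550 bases of exon) was the most abundant per length. It ranged from 1815 to 4859 (median 3578) reads in control and from 3228 to 5145 (median 3596) in LOY. Control 1 and Control 2, at 1815 and 2551, were the 2 lowest libraries, and the other controls lay inside the LOY range. Means were 3356 ± 1056 and 3879 ± 710.3 (SD, n = 6 each), with a log2 fold change of 0.26 ± 0.21 (SE; 95% interval -0.21 to 0.72; limma adjusted p = 0.852), the smallest adjusted p of the members. Without Control 1, 2 and 12 the control mean was 4107 ± 652 (n = 3) and the estimate -0.089. Bid and Bcl2l13, on opposite strands, share 628 bases of exon (17.7% of Bid), and reads of the 2 cannot be told apart there because strand was not kept.

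Bcl2l11 (chr2:128126038-128162547, plus strand, 8029 bases of exon) encodes Bim, a BH3-only protein that binds all the survival proteins and acts when growth factors are withdrawn. Its values were 539 to 1698 (median 1291) in control and 913 to 1609 (median 1256) in LOY. The 2 medians were close, and the control libraries reached further in both directions. The log2 fold change was 0.11 ± 0.27 (SE; 95% interval -0.48 to 0.71; limma adjusted p = 0.94).

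Bax (chr7:45461697-45466898, minus strand, 1576 bases of exon), the pore former that moves from the cytosol to mitochondria, was at 436 to 789 (median 529) in control and 373 to 644 (median 503) in LOY. It had the narrowest spread of the members, with a within-group SD of 0.33 on the log2 scale beside a median of 0.43 over the 3582 genes that averaged at least 500 normalized reads. The log2 fold change was -0.13 ± 0.22 (SE; 95% interval -0.60 to 0.34; limma adjusted p = 0.914), and 0.11 without Control 1, 2 and 12. Exons of Bax overlap those of Gm45808 by 192 bases. Bak1 (chr17:27019810-27029009, minus strand), the pore former that sits in the mitochondrial membrane, was near the limit of counting, at 0 to 60.2 (median 9.24) in control and 1.79 to 32.4 (median 9.67) in LOY. No Bak1 read was found in Control 12, where 3 reads, the limit that a count of 0 allows, would be 2.75 normalized reads. Only Control 1 held more than the highest LOY library. The limma estimate of 0.44 ± 1.04 (SE; 95% interval -1.82 to 2.71; adjusted p = 0.938) had the opposite sign in edgeR (-0.29) and in the authors' deposited table (-0.30). Its exons also overlap Ggnbp1 on the other strand by 437 bases.

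To contrast survival with death members, reads per kb were summed on each side in every library. Pro-survival members summed to 4202 ± 1872 reads per kb in control and 3729 ± 311 in LOY, and pro-death members to 1474 ± 243 and 1588 ± 217 (SD, n = 6 each). Mcl1 made up 75.5 ± 5.92% of the survival side in control and 76.1 ± 5.18% in LOY, so the sum follows that gene. Bcl2 is not in this sum, and reads of the Bcl2a1 genes that match several genes may be missing from it. Bid made up 63.1 ± 12.8% and 68.5 ± 4.21% of the death side, with the lowest share, 40.9%, in Control 1. The log2 ratio of the 2 sums ran from 1.01 to 2.56 (median 1.23) in control and from 0.787 to 1.42 (median 1.31) in LOY. The summed pro-survival members exceeded the summed pro-death members by more than 2-fold in every library except LOY 9, where the excess was smaller. This excess depends on the members chosen. The BH3-only genes Pmaip1 and Bad, given below, are not in the death sum, and with them the excess would be smaller. The 2-fold figure therefore holds only for the members summed here. Group means were 1.43 ± 0.586 and 1.24 ± 0.238, a difference of -0.19 that was smaller than the SD of the control libraries. The highest value was that of Control 2, and without Control 1, 2 and 12 the control mean was 1.16 ± 0.138 (n = 3), below the LOY mean. Without Control 2 alone the difference was 0.0329.

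Weighting each member equally gave a mean log2 difference, survival minus death, of 0.542 ± 0.691 in control and 0.280 ± 0.106 in LOY. Control libraries spread from -0.394 to 1.53 and LOY libraries from 0.0960 to 0.383, inside the control range. Bak1, near the limit of counting, weighs as much in this score as any other pro-death member. It was 60.2 in Control 1, where the score was -0.394, 1.28 in Control 2 (1.11) and 0 in Control 12 (1.53). The part of Bak1 in this spread was not tested. The group difference of -0.26 became -0.065 without Control 12, -0.15 without Control 2 and -0.45 without Control 1. No p is given for either score, because its members were chosen. Ratios of single partners, all of which overlapped between the groups, give the same data pair by pair. Mcl1 over Bcl2l11 per kb was 23.3 ± 13.8 in control and 18.7 ± 5.02 in LOY, and Bcl2l1 over Bax was 0.637 ± 0.142 and 0.670 ± 0.282. Mcl1 over Pmaip1, the gene of the Mcl-1 antagonist Noxa, was 8.37 ± 11.5 in control and 4.65 ± 1.05 in LOY. The control value rests on Control 2, at 31.7, where Mcl1 was high and Pmaip1 low. Without Control 2 the control ratio was 3.70 ± 1.12 (n = 5), below that of LOY, and Mcl1 over Bcl2l11 was 18.2 ± 6.52, also below LOY.

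**Figure D4:**
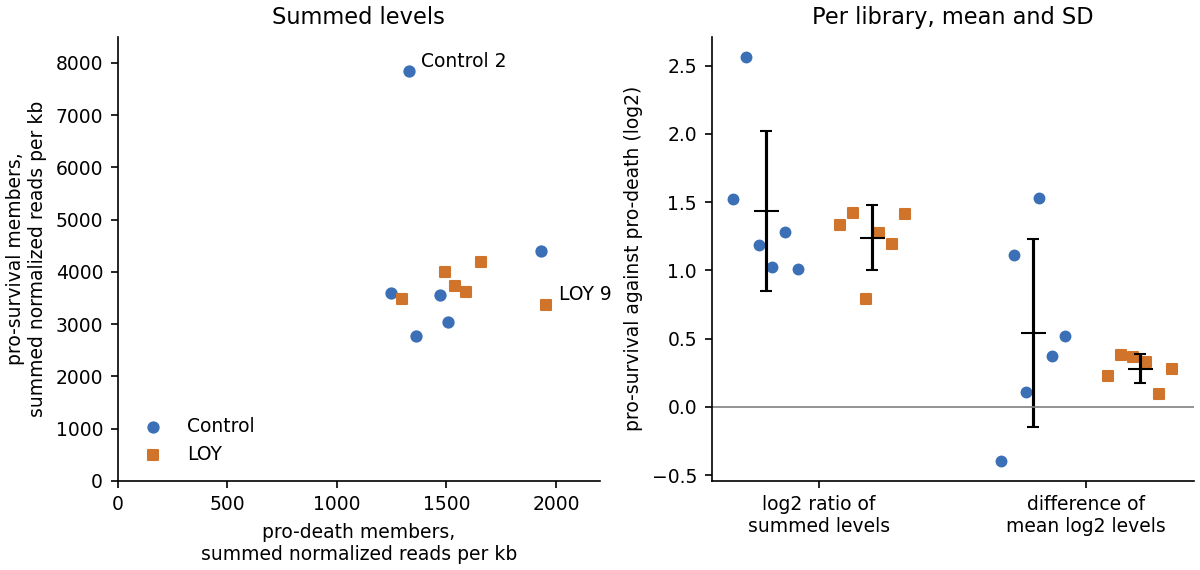
Left, summed normalized reads per kb of the pro-death members (x axis) and the pro-survival members (y axis), and right, both survival-against-death scores on a log2 scale with the group mean and SD as bars, with 1 point per library. Control 2 lies highest on the survival axis, and the groups overlap in both scores.

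Other genes of the family, from a list of 14, had 6 rows, all tested. In limma 0 of 6 passed the threshold and 1, Bcl2l12, had an unadjusted p below 0.05. Estimates were above 0 for 4 of 6, with a median of 0.58 beside 0.14 for all genes. The BH3-only genes Pmaip1 and Bad were at 1741 ± 683 and 578 ± 294 in control and 1736 ± 406 and 554 ± 208 in LOY, with log2 fold changes of 0.10 ± 0.32 and -0.011 ± 0.36 (SE). Bmf, whose protein is tied to the cytoskeleton until released, was at 288 ± 170.3 and 165 ± 127 (-0.31 ± 1.29; -0.81 in the authors' deposited table). Bbc3, the gene of the p53 target Puma, was low, at 7.35 ± 7.98 and 29.2 ± 28.3 (1.55 ± 1.31), and was at 0 in 2 control libraries and 1 LOY library. Bcl2l13, the gene that overlaps Bid, was at 317 ± 204 and 331 ± 119 (1.06 ± 1.18), with Control 1 at 1.08, and the authors' deposited table gives 0.061.

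Bcl2l12, a family member found in the cytosol and nucleus, ranged from 0 to 31.8 (median 6.63) in control and from 18.2 to 83.0 (median 35.3) in LOY. All 6 LOY libraries were above the control median, but the ranges overlapped and 2 controls were at 0. Its log2 fold change was 2.68 ± 1.04 (SE; 95% interval 0.42 to 4.93; limma unadjusted p = 0.0237, adjusted p = 0.794), so it did not pass the threshold. In edgeR the estimate was 1.64, with an unadjusted p of 0.163.

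Genes that act before and after the Bcl2 family were read from 4 lists, and 0 of their tested genes passed the threshold in limma, edgeR or DESeq2. At an unadjusted p of 0.05 limma had 1, the receptor gene Tnfrsf1a, edgeR 0, and DESeq2 1 in each list except the death pathway: Tnfrsf1a, and Trim17 and Foxo1, which the limma filter had left out. Downstream of the pores, the mitochondrial death pathway had 13 of 14 genes tested, 10 with estimates above 0 and 3 below (median 0.39). Over all genes tested, 60.9% of estimates were above 0 and the median was 0.14. In the authors' deposited table more of the 13 were below 0 than above. Casp9, the initiator caspase of the pathway, was at 885 ± 215 in control and 697 ± 249 in LOY (-0.40 ± 0.27; SE). Apaf1, the scaffold on which caspase-9 assembles, was at 689 ± 445 and 978 ± 298 (1.31 ± 0.99), with Control 2 at 8.97. Diablo, whose protein releases caspases from their inhibitors, was at 467 ± 189.9 and 586 ± 180.1 (0.35 ± 0.29). None of the 13 had an unadjusted p below 0.05 in limma.

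The turnover of Mcl-1 protein is set by ubiquitin ligases, a deubiquitinase and the kinases that mark it. Of 8 such genes 7 were tested, 6 with estimates above 0 and 1 below (median 0.39). Over all genes tested, 60.9% of estimates were above 0 and the median was 0.14. In the authors' deposited table March5, Gsk3a and Huwe1 were above 0, and the rest of the 7 were below 0. The ligase March5 was at 86.3 ± 69.1 in control and 103 ± 67.0 in LOY (1.28 ± 1.38; SE), the kinase gene Gsk3a at 33.7 ± 18.7 and 45.0 ± 17.6 (0.46 ± 0.57), and the ligase Huwe1, also called Mule, at 348 ± 199 and 379 ± 148 (0.39 ± 0.57). Each of these 3 differed by less than the spread of its libraries.

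Transcription factors that act on Bcl2 family genes had 9 of 10 members tested, 3 with estimates above 0 and 6 below (median -0.13). Stat5a, which acts downstream of GM-CSF, was at 793 ± 343 in control and 517 ± 283 in LOY (-0.66 ± 0.38; SE). Foxo3, an activator of Bcl2l11, was at 845 ± 428 and 514 ± 190.4 (-0.57 ± 0.47), and Nfkb1, of the NF-kappaB family that drives the A1 genes, at 1209.9 ± 299 and 1021 ± 254 (-0.24 ± 0.22). None of the 9 had an unadjusted p below 0.05 in limma.

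Receptors for factors that prolong or shorten neutrophil life had 8 of 8 genes tested, 3 with estimates above 0 and 5 below (median -0.091). The TNF receptor gene Tnfrsf1a ranged from 14256 to 17228 (median 15946) in control and from 11795 to 15068 (median 14506) in LOY. The LOY libraries lay toward the lower end of an overlapping span, with a log2 fold change of -0.17 ± 0.074 (SE; limma unadjusted p = 0.0386, adjusted p = 0.81). Ifngr1, a chain of the interferon-gamma receptor, was at 5813 ± 1762 and 7402 ± 1124 (0.39 ± 0.19; adjusted p = 0.81). Csf3r, the receptor for G-CSF, was at 149726 ± 23830.4 and 165891 ± 13779 (0.16 ± 0.11; adjusted p = 0.826). Neither passed the threshold.

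**Figure D5:**
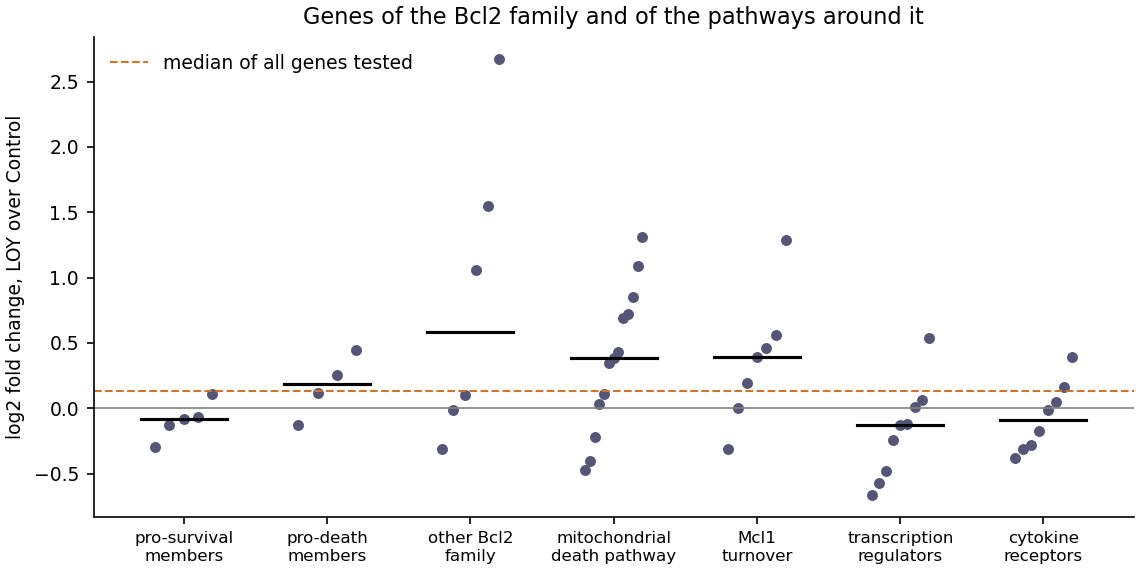
Log2 fold change, LOY over control, of each tested gene, in columns for the members, the other family genes and the 4 pathway lists, with a black line at each column's median and a dashed line at the median of all genes tested. Each column spans 0, and none of the genes shown passed the threshold in limma.

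The spread between libraries set these limits. On the log2 scale the within-group SD was 0.39 for Bid, 0.42 for Bcl2a1b, 0.47 for Mcl1, 0.48 for Bcl2l1 and 0.50 for Bcl2l11. Its median was 0.91 over all genes tested and 0.43 over the 3582 that averaged at least 500 normalized reads. Mcl1, Bcl2l1 and Bcl2l11, all among the latter, lay above 0.43, and Bid lay below it. The SD was 0.74 for Bcl2a1a, 1.12 for Bcl2a1d and 1.78 for Bak1, the gene with the fewest reads. For Mcl1 the LOY libraries were closer together than the controls, with a coefficient of variation of 12.0% against 53.0%, and the difference in spread was not tested. Without Control 1, 2 and 12 the remaining 3 controls were at 9393 ± 2205 for Mcl1, 478 ± 65.1 for Bax, 904 ± 210.3 for Bcl2l1 and 1375 ± 349 for Bcl2l11. Leaving out the library labelled LOY 4, which kept Y-linked reads, gave log2 fold changes of -0.13 for Mcl1, 0.23 for Bid and -0.13 for Bax, again with 0 of 9 members called.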

How the data were processed

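RNA of sorted blood neutrophils was measured in 12 libraries, made with SMART-Seq v4 and Nextera XT per the labels' protocols, a kit that does not mark strand. Tools listed in the submitters' processing notes are STAR 2.5.2b, featureCounts, Subread 1.5.2, Trimmomatic 0.36 and bcl2fastq 2.17, with builds GRCm38 and mm10. The authors deposited a normalized signal per gene and library, without naming its unit. It was a whole multiple of 1 step per library, within 0.02 reads, for 100.0% of values above 0, so it is a read count divided by a size factor. The authors' log2 fold changes, p-values and adjusted p-values are given per the file headers, and the sources used here do not name the tool. For every member with a row, their log2 fold change and p-value equalled those of DESeq2 on recovered reads. The authors' deposited values and the DESeq2 values are therefore not independent results. Of 11494 identifiers, 11475 were found in GENCODE vM21, which gave coordinates and exon lengths, and 16 gene names turned into dates were restored.

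The main test was limma 3.58.1 (R 4.3.3; trended, robust empirical Bayes) on log2(value + 1), for 9742 genes with 10 or more in at least 6 libraries, with Benjamini-Hochberg adjustment at 0.05. This scale understates changes of low genes, and overstates them where single libraries lie near 0. Alternatives were edgeR 4.0.16 and DESeq2 1.42.0 on recovered reads, TMM or quantile normalization, pseudocounts of 0.5 and 5, a minimum mean of 50 in place of the filter, or none, each library's share of zeros as a covariate, Control 1, 2 and 12 left out, and each library left out. edgeR without Control 6, whose step is too near 1 read to be checked independently, was added after seeing the data. Scores over members were computed per library, without a test. Shared sequence was counted as 50-base stretches of a gene's transcripts found in another gene's. Counting limits cover counting error only. Methods were tested on simulated data.

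The members, lists and alternatives were chosen with earlier results of these data known. Named were all members, the other family genes with a row, the 3 genes with the smallest p of each pathway list, Ddx3y and Eif2s3y, the 2 most abundant genes of each marker list, and any listed gene past the threshold in any tool.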

Additional observations from a re-analysis of the deposited data

Results flagged for a closer look

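In 6 of 36 checks of a group of 6 libraries, for the 9 members, the 6 other family genes and the scores, 1 library lay further from its neighbour than the critical share of its group's range (Dixon's 95% value). Chance alone would flag about 1 in 20 groups if they were independent and normally distributed. These checks share libraries and genes, and some genes lie near 0, so 6 of 36 cannot be set against that rate. Mcl1 was 22509 normalized reads in Control 2, with the other controls at 6360.5 to 11787. The same library had the highest log2 ratio of pro-survival to pro-death reads per kb, 2.56 against 1.01 to 1.53. LOY 9 had the lowest such ratio of its group, 0.787 against 1.19 to 1.42. LOY 19 stood out for Bcl2a1a, at 396 against 123 to 214, and for Bcl2l12, at 83.0 against 18.2 to 41.0. Bak1 was 60.2 in Control 1, with 0 to 15.9 in the other controls. Control 1 and Control 2 are 2 of the 3 libraries with the most genes at 0, and the part of that in these values was not tested.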

How the results depend on the processing

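No member was called under any of the 23 alternatives, nor was any gene of the other family and pathway lists, among those tested in each. With a minimum mean of 50, Bak1, Bbc3, Bcl2l12 and Gsk3a were not tested. The count of genes called over the whole table, 2 in limma, was 0 in edgeR (also without Control 6), 54 in DESeq2, 0 with quantile normalization, 0 with a minimum mean of 50, 0 with each library's share of zeros as a covariate and 0 without Control 1, 2 and 12. Leaving out 1 library gave 0 to 17: 17 without Control 6, 7 without Control 18, 5 without Control 12, 1 without Control 1 or Control 17, and 0 without Control 2 or LOY 5, 9, 10, 15 or 19. Signs of the members' log2 fold changes reversed as follows, and the cause was not tested. With that covariate Mcl1 was 0.16, Bcl2a1b -0.028, Bcl2l1 0.12, Bcl2l11 -0.030, Bid -0.18 and Bax 0.23. Without Control 1, 2 and 12 together, Mcl1 was 0.066, Bcl2a1b -0.064, Bcl2l1 0.078, Bcl2l11 -0.10, Bid -0.089, Bax 0.11 and Bak1 -0.11. In edgeR, DESeq2 and edgeR without Control 6, Bcl2a1d was 0.12, 0.11 and 0.066, and Bak1 -0.29, -0.30 and -0.33. Bak1 was -0.87 with quantile normalization. Leaving out 1 library gave -0.20 to 0.16 for Mcl1, -0.56 to -0.027 for Bcl2a1a, -0.044 to 0.24 for Bcl2a1b, -0.40 to 0.46 for Bcl2a1d, -0.25 to 0.013 for Bcl2l1, -0.11 to 0.22 for Bcl2l11, 0.094 to 0.38 for Bid, -0.21 to -0.034 for Bax and -0.14 to 1.05 for Bak1. The difference in the log2 ratio of summed reads per kb was -0.279 to 0.0329 with 1 library left out and -0.222 to 0.0804 under the other alternatives, and that of the mean log2 difference -0.449 to -0.0649 and -0.342 to -0.0555. No paired analysis was possible because the groups share no replicate numbers. Depth limits Bak1, whose counts are low in every library, and shared sequence limits the split among the Bcl2a1 genes.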

Other observations

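A pair of listed genes did not pass the filter on low values and was chosen here after the values were seen. Trim17, the gene of a ubiquitin ligase for Mcl-1, was at 0 in all 6 control libraries and at 64.6, 58.2 and 25.5 normalized reads in the libraries labelled LOY 4, 5 and 9, with 0.925 in LOY 10 and 0 in LOY 15 and 19. Foxo1, a forkhead factor gene related to Foxo3, was at most 1.28 in control and 82.0 and 68.0 in the libraries labelled LOY 4 and 5, with at most 0.864 in the other LOY libraries. Neither was tested in limma with the filter. In DESeq2 the unadjusted p was 0.00829 for Trim17 (adjusted p = 0.443) and 0.0175 for Foxo1 (adjusted p = 0.624), so neither passed the threshold there, nor in limma without the filter.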
